A study of Rattus norvegicus with 26 samples.

Results

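The mitochondrial ribosomal proteins (Mrp family) are given here as the 62 genes whose symbol begins with Mrpl or Mrps and a digit, 39 Mrpl and 23 Mrps genes, out of 13337 genes named on an Illumina RatRef-12 BeadChip with 22523 probes. Each of the 62 genes had 1 named probe, so the brightest probe of a gene was its only probe, and 3 of the symbols are in lower case in the annotation (mrpl9, mrpl11 and mrpl24). The reference gene table of the rat lists 81 protein-coding genes of the family, and genes without a named probe were not analysed here. Heart RNA came from male rats of 2 inbred strains, the stroke-prone spontaneously hypertensive rat (SHRSP), a model of hypertension with a thickened left ventricle, and the normotensive F344. There were 7 arrays of F344 and 4 of SHRSP at day 20 of embryonic development (E20), and 8 of F344 and 7 of SHRSP at week 14, with 1 sample per array and no pooling. The labels give the whole heart for E20 and the left ventricle without the interventricular septum for week 14, whereas the methods give both ventricles without atria for E20 and another RNA extraction kit than at week 14. Between E20 and week 14, stage, tissue and, by the methods, kit cannot be told apart. The labels name no treatment.

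Mitochondria carry a small genome of their own, which encodes core subunits of the respiratory chain and of ATP synthase. These subunits are made on the mitochondrial ribosome, whose RNAs come from the mitochondrial genome and whose proteins are encoded in the nucleus, translated in the cytosol and imported. Mrpl proteins belong to the large subunit, where peptide bonds are formed, and most Mrps proteins to the small subunit, which reads the messenger RNA. Mrps30 and Mrps18a sit in the large subunit of the mammalian particle despite their names. Some members descend from proteins of the bacterial ribosome and others are found only in mitochondria. Heart muscle is rich in mitochondria, and human variants of MRPL3, MRPL44 and MRPS14 cause mitochondrial disease that can involve the heart.

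The intensities are log2 values, so a difference of 1 is a doubling of the intensity. They ran from 6.64 to 15.53 over all probes and arrays, with a median of 7.16. In 60 of the 62 members the mean over the arrays was above the median of all probe means, and 4 members (Mrpl14, Mrpl30, Mrps15 and Mrps31) had a mean of 8 or less in every group. The shares over all probes given below include dim probes and are not matched to the members for intensity. Near the lower end, background signal makes a log2 difference understate the difference in RNA. Intensities of different probes were not compared with each other. In RNA of whole tissue, fewer cells of a type and less RNA per cell cannot be told apart. The correlation of arrays within a group over all probes was between 0.98 and 0.998. The study had removed arrays that correlated poorly within their group, so this agreement was in part set by that filter. The array of F344 E20 replicate 2 had the lowest mean over the 62 members, 9.83, where arrays of the other 3 groups had 10.02 to 10.25. Where they moved, medians and counts of calls at E20 and between stages in F344 are also given without it. Other counts, among them those of groups that do not overlap, and values of single members are mostly given with it.

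The 250 bases before the annotated start of 4 genes are printed first, because these genes carried the widest gaps between strains (Mrpl17, Mrpl18 and Mrpl48) and between stages (Mrpl37). They are RefSeq sequences of GRCr8, which is not a genome of SHRSP or F344, so they show no strain allele. Capitals mark matches to short motifs searched on both strands. These were GCGC and TGCGC parted by any base for NRF1, CCGGAAG for ETS factors, AAGATGGC for YY1, and the CCAAT box, and no match of one motif overlapped another in the printed windows. The windows are chr1:169575700-169575949 on the minus strand, chr1:50384702-50384951 on the plus strand, chr1:164351377-164351626 on the minus strand and chr5:127074968-127075217 on the minus strand.
Mrpl17: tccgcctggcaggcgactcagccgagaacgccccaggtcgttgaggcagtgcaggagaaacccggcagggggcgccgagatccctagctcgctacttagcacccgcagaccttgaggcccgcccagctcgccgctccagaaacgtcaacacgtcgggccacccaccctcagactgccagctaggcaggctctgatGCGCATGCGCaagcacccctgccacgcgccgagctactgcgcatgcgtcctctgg
Mrpl18: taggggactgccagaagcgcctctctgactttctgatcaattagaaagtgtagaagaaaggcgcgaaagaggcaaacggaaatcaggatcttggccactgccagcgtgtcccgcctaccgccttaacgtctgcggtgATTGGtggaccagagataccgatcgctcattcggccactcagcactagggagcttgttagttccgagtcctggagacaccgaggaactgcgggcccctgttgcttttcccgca
Mrpl48: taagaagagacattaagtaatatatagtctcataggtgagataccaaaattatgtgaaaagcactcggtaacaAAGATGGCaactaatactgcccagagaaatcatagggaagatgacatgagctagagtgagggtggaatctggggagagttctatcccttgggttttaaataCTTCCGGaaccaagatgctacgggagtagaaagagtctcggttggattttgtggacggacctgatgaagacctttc
Mrpl37: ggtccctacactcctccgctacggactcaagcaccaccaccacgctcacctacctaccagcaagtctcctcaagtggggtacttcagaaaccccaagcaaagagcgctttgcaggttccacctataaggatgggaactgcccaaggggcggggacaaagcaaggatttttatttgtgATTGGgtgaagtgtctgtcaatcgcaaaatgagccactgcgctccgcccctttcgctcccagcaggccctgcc

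Mrpl17 had a match to NRF1, a transcription factor of nuclear genes for mitochondrial proteins, Mrpl48 a match to YY1 and, reversed, one to the ETS motif, and Mrpl18 and Mrpl37 a reversed CCAAT box. Windows of 51 members were found. The NRF1 motif was in 7 of them (13.7%) against 3.75% of 33469 windows of the same length, and the ETS motif in 10 (19.6%) against 7.27%. YY1 was matched in 3 (5.88%) against 1.63%, and CCAAT in 21 (41.2%) against 34%. These shares are a description, and a match is not a binding site.

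The first question was whether strain gaps of Mrpl17 and Mrpl18 stand alone in the family. Both genes were named in the study for the strains at week 14, so their week 14 values are a description without a test. Mrpl17, a large subunit protein with a bacterial homologue, was higher in SHRSP at both stages. At week 14 the lowest, median and highest log2 intensities of Mrpl17 were 9.59, 9.64 and 10.03 in SHRSP and 7.45, 7.62 and 7.79 in F344. At E20 the 4 SHRSP arrays gave 10.22, 10.15, 9.82 and 9.74 for Mrpl17, and the 7 F344 arrays ran from 7.51 to 7.69 with a median of 7.64. No SHRSP array overlapped an F344 array in Mrpl17 at either stage. The difference of means was 2.17 at week 14, a 4.5-fold gap, and 2.36 at E20 (standard error, SE, 0.09, adjusted p = 2.91e-16 from limma), a 5.14-fold gap. The F344 means of 7.61 at week 14 and 7.62 at E20 lay above 70.6% and 70.8% of all values of the series, yet less than 1 log2 unit above their median. Within SHRSP the Mrpl17 values were split. At week 14, 3 arrays (replicates 1 to 3) had 9.96 to 10.03 and 4 arrays (replicates 4 to 7) had 9.59 to 9.64, with no array between. No label separates these arrays.

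Mrpl18, a large subunit protein known in human cells to bind a cytosolic ribosomal RNA that enters mitochondria, went the opposite way. At week 14 the lowest, median and highest intensities of Mrpl18 were 7.42, 7.50 and 7.65 in SHRSP and 11.34, 11.63 and 11.97 in F344. At E20 the SHRSP arrays gave 7.47, 7.39, 7.59 and 7.49 for Mrpl18, and the F344 arrays ran from 11.58 to 11.97 with a median of 11.72. The groups were apart by more than 3 log2 units at both stages, with no array between. The difference of means was -4.12 at week 14, 17.4-fold lower in SHRSP, and -4.25 at E20 (SE 0.08, adjusted p = 1.2e-22 from limma), 19.1-fold lower. The SHRSP means of Mrpl18, 7.52 and 7.48, exceeded 68.9% and 67.9% of all values and lay as close to the lower end, where a fold is understated. Neither gene passed the test between stages. For Mrpl17 E20 minus week 14 was 0.01 in F344 (95% interval -0.15 to 0.17) and 0.20 in SHRSP (0.01 to 0.39, adjusted p = 0.0969), and for Mrpl18 it was 0.09 (-0.05 to 0.23) and -0.04 (-0.22 to 0.13). The SHRSP value of Mrpl17 did pass it without SHRSP week 14 replicate 1 or SHRSP E20 replicate 4.

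The strains were apart at both stages in Mrpl48 too. Mrpl48, a large subunit protein without a bacterial homologue, was lower in SHRSP by about 1 log2 unit. At week 14 its lowest, median and highest log2 intensities were 9.95, 10.05 and 10.38 in SHRSP and 10.74, 11.10 and 11.41 in F344. At E20 the 4 SHRSP arrays gave 10.52, 10.55, 10.30 and 10.36 for Mrpl48, and the 7 F344 arrays lay between 11.17 and 11.50. No arrays overlapped at either stage. As in Mrpl17, replicates 1 to 3 of SHRSP at week 14 (10.12 to 10.38) were above replicates 4 to 7 (9.95 to 10.05), and replicates 1 and 2 of SHRSP at E20 above 3 and 4. The second component of the residuals over all probes (13.5% of their variance) separated these same arrays, and also F344 E20 replicates 1 to 4 from 5 to 7, but followed no such order in F344 at week 14. No label gives a batch. Mrpl48 at both stages and Mrpl17 and Mrpl18 at E20 kept their calls with the leading 2 components as covariates, a setting chosen after seeing the data. These components came from values centred within each group, so as covariates they cannot change a difference of group means. This setting therefore does not test whether the split of the arrays bears on the strain gaps. The difference for Mrpl48 was -0.99 at week 14 (SE 0.07, adjusted p = 4.45e-11 from limma) and -0.96 at E20 (SE 0.09, adjusted p = 1.74e-08). Its means, between 10.10 and 11.39, were well inside the range of the scale in every group. Mrpl48 was also higher at E20 than at week 14 in each strain, by 0.30 in F344 (adjusted p = 0.00135) and by 0.34 in SHRSP (adjusted p = 0.00337), and its interaction of strain and stage was 0.03 (95% interval -0.20 to 0.27). The 3 genes each have 1 probe, and whether a strain variant under a probe bears on its intensity was not tested.

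**Figure D1:**
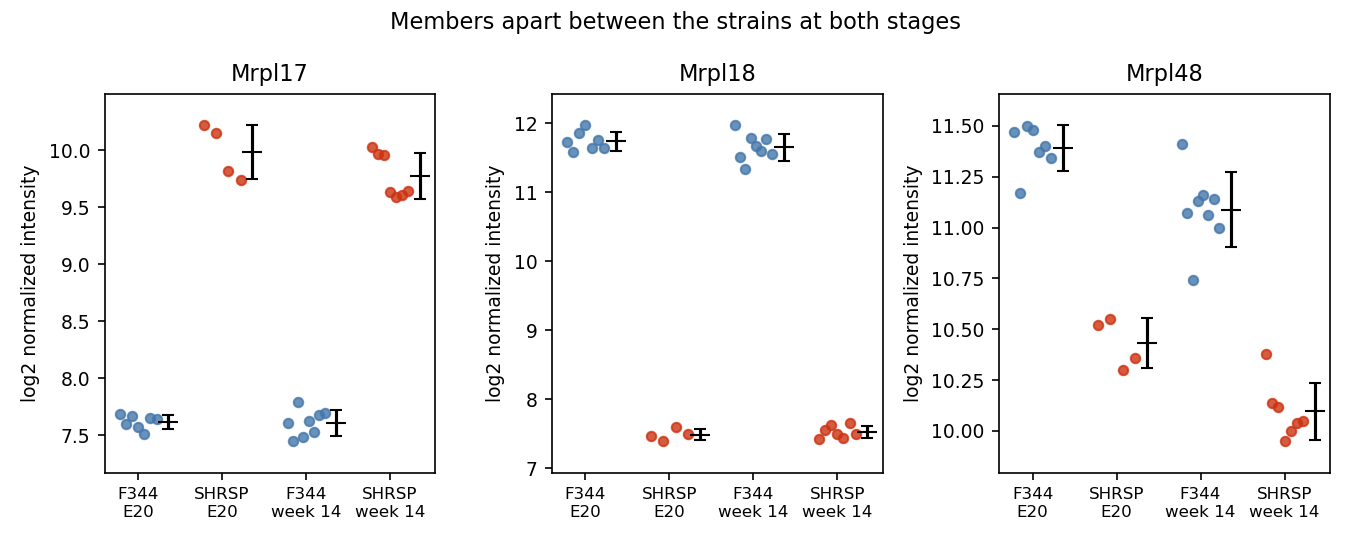
Log2 normalized intensity of Mrpl17, Mrpl18 and Mrpl48 in each array (points, blue F344 and red SHRSP) of the 4 groups on the x axis, with mean and SD at the right of each group. The vertical scales differ between panels. The strains do not overlap at either stage in the 3 genes, and the difference at week 14 is 2.17 for Mrpl17, -4.12 for Mrpl18 and -0.99 for Mrpl48.

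The rest of the family was close between the strains. Without Mrpl17 and Mrpl18 the strain differences ran from -0.99 to 0.47 at week 14 and from -0.96 to 0.52 at E20, with Mrpl48 at the lower end of each. Next to Mrpl17 stood Mrps27 at week 14 (0.47) and Mrps18c at E20 (0.52), and next to Mrpl18 stood Mrpl48 at both stages. The study's limit of a log2 difference of 1.5 with an adjusted p under 0.05 was passed by 2 members at each stage, Mrpl17 and Mrpl18, against 0.2% of all probes at week 14 and 0.124% at E20. At an adjusted p under 0.05 alone, 11 members were higher and 5 lower in SHRSP at week 14, with Mrpl17 and Mrpl18 among them, where 8.95% of all probes were called in either direction (4.49% higher and 4.46% lower). At E20, 5 were higher and 3 lower, where 3.21% of all probes were called (1.55% higher and 1.66% lower). The median difference of the members was 0.10 at week 14 and 0.06 at E20, with 44 members above 0 at each stage, and that of all probes was 0.00 at both. Called the same way at both stages were Mrpl17 and Mrpl21, higher, and Mrpl18 and Mrpl48, lower, where 0.99% of all probes were called higher at both stages and 0.95% lower. The strain comparisons of the 2 stages share no arrays. Across members, which are not independent replicates, the differences at week 14 and E20 correlated at r = 0.94, at 0.48 without Mrpl17 and Mrpl18, and at 0.12 without Mrpl48 as well. Over all probes r was 0.55.

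**Figure D2:**
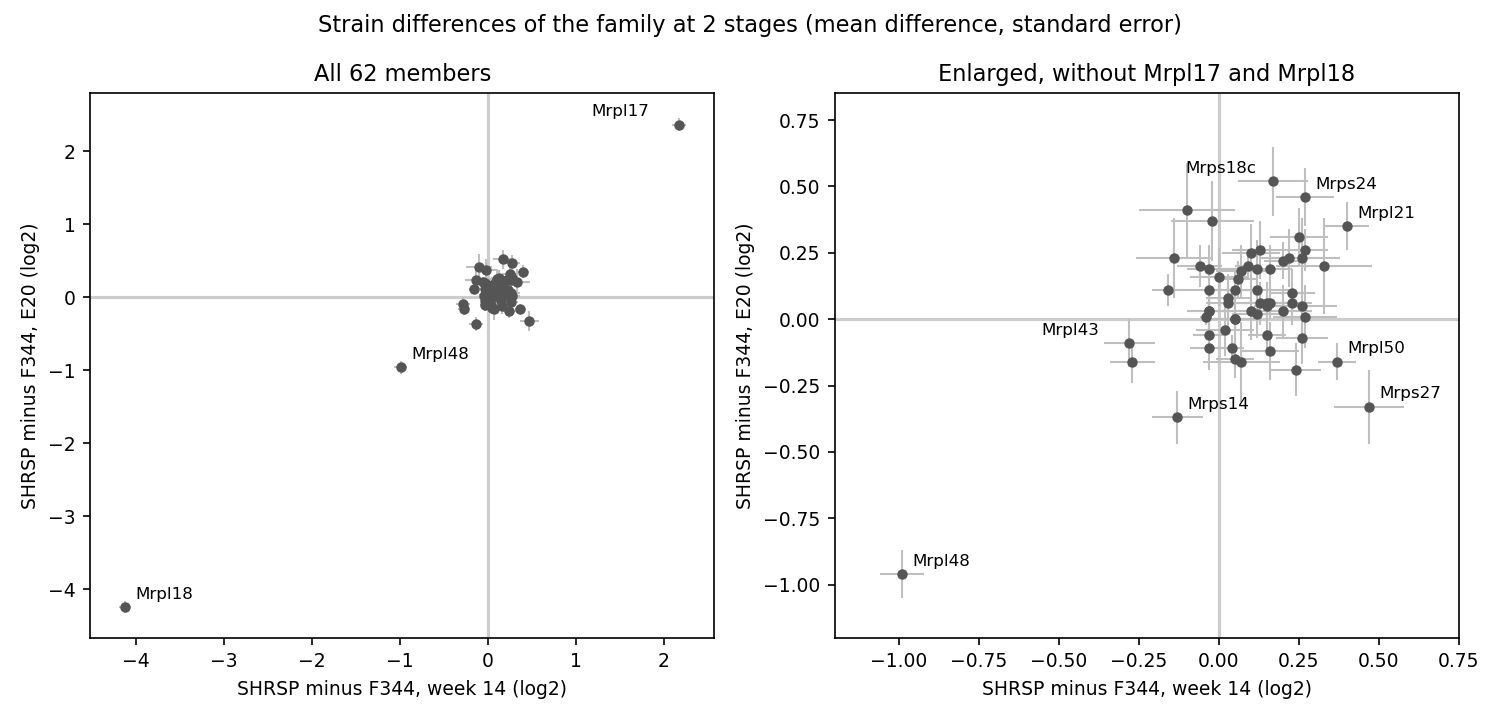
Mean log2 difference SHRSP minus F344 of the 62 members at week 14 (x axis) and at E20 (y axis), with SEs as lines, over the full range (left) and enlarged without Mrpl17 and Mrpl18 (right). Mrpl17, Mrpl18 and Mrpl48 lie far from 0 on both axes, and the others lie between -0.28 and 0.47 at week 14 and between -0.37 and 0.52 at E20.

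The other strain differences at week 14 were small. Among large subunit proteins with a bacterial homologue, Mrpl21 was higher in SHRSP by 0.40 (SE 0.07, adjusted p = 0.000422), Mrpl1 by 0.27 (adjusted p = 0.00827), Mrpl36 by 0.23 (adjusted p = 0.0164) and Mrpl14 by 0.15 (adjusted p = 0.00969). Of the mitochondria-specific proteins of the large subunit, Mrpl50 was higher by 0.37 (SE 0.06, adjusted p = 3.28e-05), Mrpl49 by 0.23 (adjusted p = 0.0465) and Mrpl46 by 0.16 (adjusted p = 0.0481), while Mrpl43 was lower by a difference of -0.28 (adjusted p = 0.0164) and Mrpl51 by -0.16 (adjusted p = 0.0426). In the small subunit Mrps27, a protein with pentatricopeptide repeats, was higher by 0.47 (SE 0.11, adjusted p = 0.00551), Mrps9 by 0.26 (adjusted p = 0.041) and Mrps7 by 0.20 (adjusted p = 0.0299). Mrps26, which is mitochondria-specific, was lower with -0.27 (adjusted p = 0.00989). By group, 12 of 41 large subunit members and 4 of 21 small subunit members were called at week 14 (29.3% and 19%, against 8.95% of all probes). At E20 these were 4 of 41 and 4 of 21 (9.76% and 19%, against 3.21%). The large subunit counts include Mrpl17 and Mrpl18, which the study had named at week 14, so the subunits are not compared on equal terms. Groups did not overlap at week 14 in 2 members that were higher (Mrpl17 and Mrpl36, where all 8 F344 arrays of Mrpl36 lay between 10.98 and 11.09 and the SHRSP arrays from 11.13 to 11.42) and 3 that were lower (Mrpl18, Mrpl48 and Mrps26), against 2.1% and 1.27% of all probes. With each of the 26 arrays left out in turn, Mrpl46 lost its call 19 times, Mrpl49 and Mrpl51 15 times each, Mrps9 10 times and Mrps7 6 times, and Mrpl1, Mrpl21, Mrpl36, Mrpl43, Mrpl48, Mrpl50, Mrps26 and Mrps27 lost theirs in 0 of the 26 fits. For Mrps27, SHRSP replicates 1 and 7 had 10.11 and 10.17 against 9.30 to 9.63 in the others, and no fit left out both. Without SHRSP week 14 replicate 4 the members called higher fell from 11 to 7. Mrpl14, whose mean was 8 or less in every group, was not followed singly in these fits.

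At E20 the small differences were in Mrpl21 and in 4 members of the small subunit. Mrps18c, a homologue of a bacterial small subunit protein, was higher in SHRSP by 0.52 (SE 0.13, adjusted p = 0.0205). Its 4 SHRSP arrays gave 10.60, 10.75, 10.61 and 10.60, and the 7 F344 arrays ran from 9.49 to 10.39 with a median of 10.35. Mrps24 was higher by 0.46 (SE 0.11, adjusted p = 0.0124), with 10.75, 10.78, 10.84 and 10.76 in SHRSP against 9.92 to 10.58 in F344. In both genes the SHRSP arrays lay close together above an F344 group in which replicates 2 and 4 were low. These 2 arrays had 9.49 and 9.70 for Mrps18c, with the others at 10.19 to 10.39. For Mrps24 they had 9.92 and 10.06, with the others at 10.38 to 10.58. Without F344 E20 replicate 2 the differences of Mrps18c and Mrps24 were 0.42 and 0.39. Mrpl21 was again higher, by 0.35 (adjusted p = 0.026), Mrps10 was higher by 0.20 (adjusted p = 0.0327), and Mrps14 was lower with -0.37 (adjusted p = 0.0328). Groups did not overlap in 4 members that were higher and 4 that were lower, against 2.26% and 2.4% of all probes. Each of these 5 calls was lost without some arrays. These were SHRSP E20 replicate 3 for Mrps24, SHRSP E20 replicates 1 and 2 for Mrps18c, these and F344 E20 replicate 2 for Mrpl21, and 6 arrays for Mrps10 and 7 for Mrps14. Members called higher numbered 3 without F344 E20 replicate 2 or without SHRSP E20 replicate 1, and 2 without SHRSP E20 replicate 2, and the median of the members was 0.03 without F344 E20 replicate 2.

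Genes near Mrpl17 and Mrpl18 were looked up in the reference gene table, used here for gene order alone, with the 5 nearest measured genes on each side. Genes without a measured probe lie between, so these were up to 15 genes from Mrpl17 and up to 19 from Mrpl18. Of the 10 around Mrpl17, Tpp1, a lysosomal peptidase, was lower in SHRSP at both stages (-0.57 at week 14, adjusted p = 2.95e-05, and -0.80 at E20, adjusted p = 1.03e-05), and Timm10b, a mitochondrial import chaperone, was higher at E20 (0.48, adjusted p = 0.00154) but not past the test at week 14 (-0.05). The other neighbours of Mrpl17 stayed within -0.10 and 0.04. Of these, Dchs1 and all 5 genes on one side, which are olfactory receptor genes, had group means of 6.89 to 7.29. The median of all values of the series was 7.16. Of the 10 around Mrpl18, Sod2, the superoxide dismutase of mitochondria, was lower in SHRSP at week 14 (-0.26, adjusted p = 0.0139) and at E20 (-0.57, adjusted p = 4.89e-05). Tcp1, a subunit of the cytosolic chaperonin and the nearest measured gene on one side, gave -0.13 (adjusted p = 0.289) and -0.10 (adjusted p = 0.782). Fndc1, Pnldc1, Mas1l, Mas1 and Slc22a2, also among the 10 around Mrpl18, had group means of 6.99 to 7.22. No neighbour of either gene came near the gap of Mrpl17 or Mrpl18, but a gene that is dim in both strains could hardly show one. Around Mrpl48, whose neighbours were added once its values were known, Ucp2, an uncoupling protein of the inner membrane, was lower in SHRSP at week 14 (-1.01, adjusted p = 1.28e-08), and at E20 it gave -0.29 (adjusted p = 0.29), and P2ry6, a nucleotide receptor, gave -0.07 at week 14 (adjusted p = 0.0406).

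In 2 members (3.23%) the stage difference itself differed between the strains, both with a negative interaction. This share was close to the 2.96% of all probes that were called (1.02% positive and 1.94% negative). Mrps27 went opposite ways. Its lowest, median and highest log2 intensities were 9.30, 9.51 and 10.17 in SHRSP and 8.77, 9.28 and 9.34 in F344 at week 14, and 9.29, 9.52 and 9.63 in F344 at E20. The 4 SHRSP arrays at E20 gave 9.01, 9.20, 9.23 and 9.20 for Mrps27. Of its SHRSP arrays at week 14, replicates 1 and 7 gave 10.11 and 10.17, and the rest lay between 9.30 and 9.63. No fit left out both of these high arrays, so how far the values of Mrps27 rest on them was not tested. SHRSP thus had the higher mean at week 14, with overlap, and the lower one at E20, without overlap. E20 minus week 14 was -0.49 in SHRSP (SE 0.14, adjusted p = 0.00582) and 0.31 in F344 (SE 0.11, adjusted p = 0.0318), where the F344 call was lost without any of 5 arrays (replicates 2, 6 and 7 at E20, and 1 and 3 at week 14), and the interaction of strain and stage was -0.80 (SE 0.18, adjusted p = 0.00696 from limma). Mrpl50 was lower at E20 in SHRSP, by a difference of -0.65 (SE 0.07, adjusted p = 1.82e-08), and gave -0.11 in F344 (adjusted p = 0.14), with an interaction of -0.54 (SE 0.09, adjusted p = 0.000299). Its SHRSP arrays were at 10.17 to 10.49 at week 14 and at 9.74, 9.66, 9.67 and 9.76 at E20, and its F344 arrays at 9.65 to 10.20 and 9.77 to 9.95. The strain difference at E20 was -0.33 for Mrps27 (adjusted p = 0.3) and -0.16 for Mrpl50 (adjusted p = 0.318), neither past the test. Mrps30 had an interaction of -0.43 that did not pass it (adjusted p = 0.0858).

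**Figure D3:**
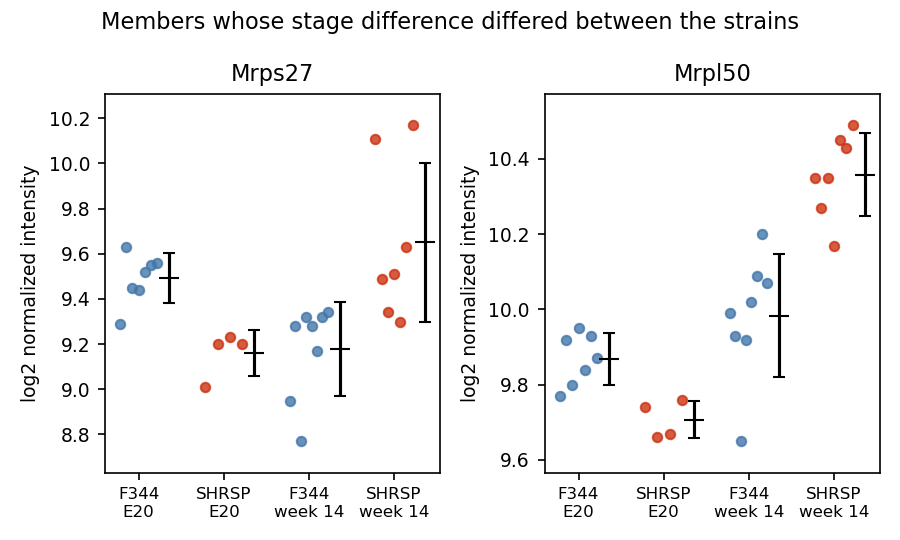
Log2 normalized intensity of Mrps27 and Mrpl50 in each array (points, blue F344 and red SHRSP) of the 4 groups on the x axis, with mean and SD at the right of each group. The SHRSP mean is above that of F344 at week 14 and below it at E20 in both genes, with interactions of -0.80 and -0.54.

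More of the family was lower than higher at E20 compared with week 14. In SHRSP 8 members were higher and 22 lower at an adjusted p under 0.05, where 17% of all probes were higher and 15.7% lower (32.7% in either direction). In F344 12 were higher and 25 lower, where 18.6% and 17.2% of all probes were (35.7%). The median difference of the members was -0.14 in SHRSP and -0.12 in F344, beside 0.00 over all probes. Without F344 E20 replicate 2 the F344 median was -0.09, with 13 higher and 20 lower. In both strains 7 members were called higher and 16 lower, where 14.3% and 12.1% of all probes were. The strains share no arrays in these comparisons, and the stage differences of the members correlated at r = 0.82 between them, against 0.93 over all probes. Groups of the 2 stages did not overlap in 10 members that were higher and 17 that were lower in SHRSP, against 13.3% and 12.2% of all probes, and in 1 and 11 in F344, against 9.41% and 8.59%. The F344 counts include E20 replicate 2, which alone made the stages overlap in Mrps17, Mrpl22, Mrpl23, Mrpl32 and Mrps11, where its other E20 arrays lay above week 14. No member passed the study's limit of 1.5, which 2.1% of all probes passed in SHRSP and 1.97% in F344. Among large subunit members 5 were higher and 14 lower in SHRSP and 6 and 16 in F344, and among small subunit members 3 and 8 in SHRSP and 6 and 9 in F344.

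Mrpl37, a mitochondria-specific protein of the large subunit, had the widest stage difference. Its lowest, median and highest log2 intensities in SHRSP at week 14 were 12.08, 12.23 and 12.38, and the 4 SHRSP arrays at E20 gave 10.78, 10.80, 10.81 and 10.73. In F344 Mrpl37 ran from 11.96 to 12.24 at week 14 and from 10.53 to 11.08 at E20. The stages were far apart in each strain. The difference was -1.44 in SHRSP (SE 0.08, adjusted p = 7.27e-14), 2.72-fold lower at E20, and -1.35 in F344 (SE 0.07, adjusted p = 3.44e-15). Of the members that were lower at E20 in both strains, Mrps23 followed with -0.71 in F344 (adjusted p = 4.28e-09) and -0.69 in SHRSP (adjusted p = 2.95e-07). Mrpl4, a large subunit protein with a bacterial homologue, gave -0.60 and -0.55, and Mrps18b, of the same bacterial ancestry as Mrps18c, -0.65 and -0.37. Mrpl15 (-0.43 and -0.52), Mrpl47 (-0.52 and -0.45) and mrpl24 (-0.53 and -0.35) were lower as well.

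Fewer members were higher at E20. Mrpl23, a large subunit protein with a bacterial homologue, had 10.99, 11.10, 10.37 and 10.47 in the SHRSP arrays at E20 against 9.46 to 10.09 at week 14, and 9.88 to 10.95 against 9.60 to 9.91 in F344. The difference of Mrpl23 was 1.01 in SHRSP (SE 0.15, adjusted p = 4.42e-06) and 0.62 in F344 (SE 0.13, adjusted p = 0.000218). Its values at E20 were spread more widely than at week 14, and in F344 the stages overlapped through E20 replicate 2 alone (9.88). Mrps10, of the small subunit, was higher by 0.52 in F344 (adjusted p = 1.47e-10) and by 0.64 in SHRSP (adjusted p = 1.77e-10) with no overlap. Mrps17 (0.38 and 0.33), Mrps25 (0.43 and 0.28), Mrpl22 (0.36 and 0.25), Mrpl43 (0.39 and 0.20) and Mrpl48 were the other members called higher in both strains, of which F344 lost the call of Mrps25 without E20 replicate 1, 6 or 7 and that of Mrpl22 without E20 replicate 3. Mrps18a was higher in SHRSP (0.57, adjusted p = 0.00281) and gave 0.20 in F344 (adjusted p = 0.233), and Mrps2 was higher in F344 (0.44, adjusted p = 0.00465) and gave 0.22 in SHRSP (adjusted p = 0.306), with interactions not past the test (adjusted p = 0.453 and 0.75).

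**Figure D4:**
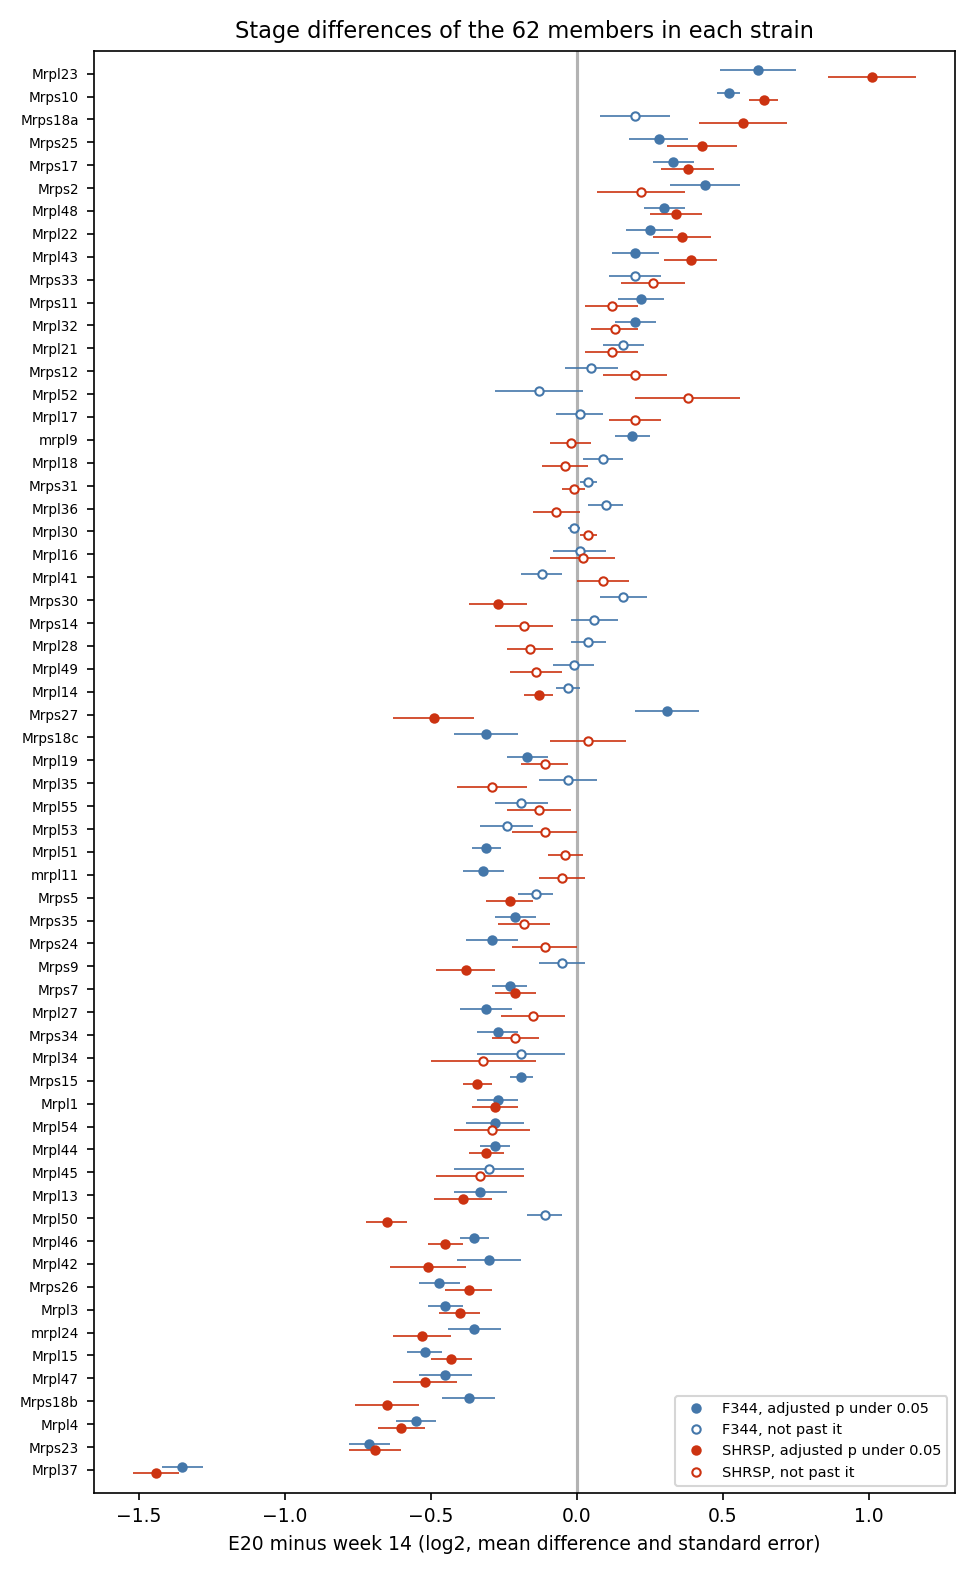
Mean log2 difference E20 minus week 14 with SE (x axis) of each of the 62 members (rows, sorted by the mean of the strains) in F344 (blue) and SHRSP (red), filled where the adjusted p is under 0.05. Mrpl37 is lowest with -1.44 in SHRSP and -1.35 in F344, Mrpl23 is highest with 1.01 and 0.62, and Mrps27 has opposite signs in the strains.

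**Figure D5:**
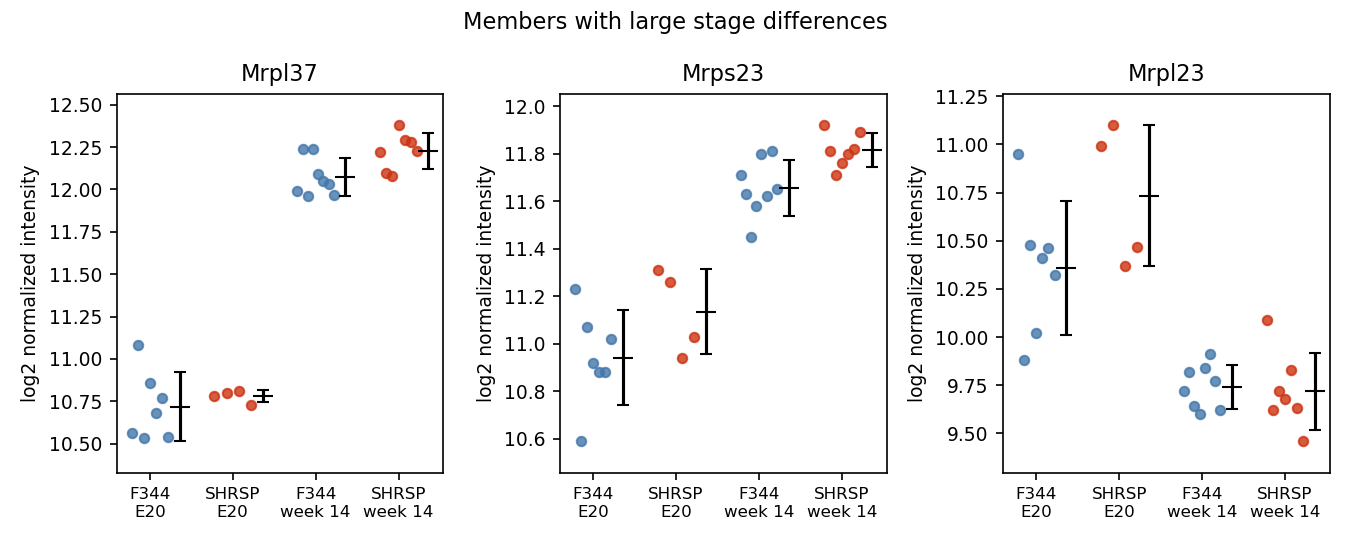
Log2 normalized intensity of Mrpl37, Mrps23 and Mrpl23 in each array (points, blue F344 and red SHRSP) of the 4 groups on the x axis, with mean and SD at the right of each group. The vertical scales differ between panels. Mrpl37 and Mrps23 are lower at E20 without overlap in either strain, and Mrpl23 is higher at E20 and overlaps between stages in F344 through E20 replicate 2 alone.

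The members linked to heart disease in humans did not share the gaps of Mrpl17 and Mrpl18. For Mrpl3, a core protein of the large subunit, the strain difference was -0.03 at week 14 (95% interval -0.15 to 0.09) and 0.03 at E20 (-0.12 to 0.17). For Mrpl44, a large subunit protein of the RNase III family, it was -0.03 (-0.14 to 0.08) and -0.06 (-0.19 to 0.08). Mrps14 of the small subunit gave -0.13 at week 14 (-0.30 to 0.04) and the -0.37 at E20 given above, a call lost without SHRSP E20 replicate 1 or 2 or any of F344 E20 replicates 2, 4, 5, 6 and 7. Mrps22, another such gene, was not analysed here. At E20 Mrpl3 was lower than at week 14 in both strains, with -0.45 in F344 (adjusted p = 2.57e-07) and -0.40 in SHRSP (adjusted p = 4.15e-05), as was Mrpl44 with -0.28 (adjusted p = 7.39e-05) and -0.31 (adjusted p = 0.00031). For Mrps14 the values were 0.06 (adjusted p = 0.642) and -0.18 (adjusted p = 0.176).

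Other genes of mitochondrial translation were listed from their roles. Their counts stand beside 15.7% of all probes lower and 17% higher at E20 in SHRSP, and 17.2% lower and 18.6% higher in F344. Of 9 measured translation factors 6 were lower and 0 higher at E20 in SHRSP, and 4 and 0 in F344. Mrrf, the factor that recycles mitochondrial ribosomes, gave -0.93 (adjusted p = 1.41e-08) and -0.80 (adjusted p = 6.25e-09), and Mtif2, an initiation factor, -0.57 and -0.47. Of 17 genes of ribosome assembly and rRNA modification 6 were lower and 2 higher in SHRSP and 5 and 2 in F344, among them the rRNA methyltransferase Nsun4 (-0.60 and -0.47) and the large subunit assembly factor Malsu1 (-0.62 and -0.46). Of 12 measured genes of mitochondrial aminoacyl-tRNA synthesis, 4 were lower and 0 higher in SHRSP and 5 and 1 in F344. Of 5 mitoribosomal proteins without an Mrp symbol, 3 were higher and 0 lower in SHRSP and 2 and 1 in F344, where Dap3 of the small subunit was higher in both strains (0.22 and 0.47) and Gadd45gip1 lower in F344 (-0.36, adjusted p = 0.00773). Of 9 genes of mitochondrial transcription, 2 were higher and 2 lower in SHRSP and 1 and 2 in F344. Tfb2m, an initiation factor of the mitochondrial RNA polymerase, was lower at E20 with -1.47 in F344 (adjusted p = 4.53e-19) and -1.59 in SHRSP (adjusted p = 8.97e-18), as was Polrmt, that polymerase (-0.69 and -0.84), while Tfam was higher in SHRSP (0.24, adjusted p = 0.000202) and Ppargc1a, a coactivator of mitochondrial genes, in both (0.14 and 0.15). Cytosolic ribosomal proteins, the counterparts of the family outside mitochondria, went the other way, with 58 of 66 higher in SHRSP (4 lower, median 0.68) and 54 of 66 in F344 (4 lower, median 0.46). Of 19 genes that mark mitochondrial content, 6 were higher and 10 lower in SHRSP and 6 and 7 in F344.

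Between the strains, 2 of 9 translation factors were called at week 14 (22.2%), 7 of 17 assembly genes (41.2%), 2 of 12 genes of aminoacyl-tRNA synthesis (16.7%), 2 of 9 of transcription (22.2%), 3 of 19 of mitochondrial content (15.8%) and 9 of 66 cytosolic ribosomal proteins (13.6%), against 8.95% of all probes. At E20 the counts were 1 of 9, 3 of 17, 1 of 12, 1 of 9, 1 of 19 and 5 of 66 in the same order, against 3.21% of all probes. Of the 5 mitoribosomal proteins without an Mrp symbol, 1 was called at week 14 (Dap3, higher in SHRSP by 0.23, adjusted p = 0.0139) and 0 at E20. Differences of the cytosolic ribosomal proteins ran from -1.26 to 1.26 at week 14 and from -0.87 to 1.64 at E20. In the other lists the widest was Tfam, which packages and transcribes the mitochondrial genome. Tfam was higher in SHRSP by 1.03 at week 14 (SE 0.04, adjusted p = 1.58e-16) and by 1.24 at E20 (SE 0.05, adjusted p = 3.09e-16). Sars2, the mitochondrial seryl-tRNA synthetase, was lower at both stages (-0.38 and -0.28), and Nsun4 was too (-0.30 and -0.43).

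Some markers of every cell type listed were called between stages, those of some types between the strains at week 14, and none between the strains at E20. Over all probes 32.7% were called between stages in SHRSP and 35.7% in F344. Between the strains 8.95% were called at week 14 and 3.21% at E20. With such shares, a called marker alone does not show that a cell type differed. The part of cell types in the values of the family was not tested. Of 7 cardiomyocyte markers 0 were called between the strains, whereas 5 were lower at E20 in SHRSP and 4 in F344, and their mean intensity per array lay between 12.80 and 13.08 at E20 and between 13.32 and 13.71 at week 14. Of 6 lymphocyte markers 5 were lower in SHRSP at week 14, with array means of 7.33 to 7.50 against 7.85 to 8.37 in F344, and 0 were called between the strains at E20, with array means of 7.12 to 7.17 against 7.12 to 7.20. All 4 macrophage markers were lower at E20 in each strain, and 3 of 4 markers of proliferating cells were higher, while Ccnb1 was lower in F344 (-0.09, adjusted p = 0.00541), with array means of 9.20 to 9.35 at E20 and 7.15 to 7.53 at week 14. The atrial markers did not move together. Myl7, an atrial myosin light chain, was higher at E20 in both strains (6.24 in SHRSP and 2.46 in F344) and lower in SHRSP than in F344 at week 14 (-3.76, adjusted p = 5.09e-14). Nppa, a natriuretic peptide, was lower at E20 in SHRSP (-1.13) and higher in F344 (1.45), and higher in SHRSP than in F344 at week 14 (2.78, adjusted p = 2.04e-11). At E20 neither was called between the strains. In each strain 2 of 4 endothelial and 2 of 4 adipocyte markers were lower at E20, 2 of 4 erythroid markers were higher, and of 6 fibroblast markers 4 were higher and 2 lower.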

How the data were processed

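Heart RNA was measured on single-colour BeadChips. The authors read intensities in GenomeStudio, removed arrays that correlated poorly within their group in the R package lumi, and deposited log2 values after quantile normalization, which were used as given for 22523 probes on 26 arrays. Background correction is not given in the sources used here. Depth does not apply to arrays, and their number limits the precision. A table of raw intensities was not used, because the names of its 52 columns matched no label, so there was no detection filter. Groups came from the labels. The methods state individual samples, and the labels do not say that replicate numbers pair samples. Deviations of same-numbered samples correlated at -0.24 to 0.44 over group pairs, so no pairing was used, though a residual component followed the order of the numbers in 3 of 4 groups.

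limma 3.58.1 in R 4.3.3 (lmFit and eBayes) was fitted with 1 mean per group over the 26 arrays, with Benjamini-Hochberg adjustment over all probes. Comparisons were SHRSP minus F344 at each stage, E20 minus week 14 in each strain, and their interaction. A probe was called at an adjusted p under 0.05, and also past a log2 difference of 1.5. The fit was tested on simulated data. Members, gene lists and comparisons were chosen with earlier results of these data known. The genes named are Mrpl17 and Mrpl18, the members of human disease, the 10 highest and 10 lowest called members per strain comparison and interaction, 8 per stage comparison, up to 4 per other list, and the members ranked next to Mrpl17 and Mrpl18; Mrpl14, Mrps30 and the neighbours of Mrpl48 were added once values were known. Gene names came from the array's annotation, and gene order and promoters from RefSeq tables of GRCr8. The alternatives were other samples in the fit, a block, limma-trend, array weights, filters on dim probes, normalizations, another fold limit, and each array left out. Matplotlib 3.10.9, NumPy 2.4.6 and pandas 2.3.3 under Python 3.11.15 were used for tables and figures.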

Additional observations from a re-analysis of the deposited data

Results flagged for a closer look

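Of 140 groups of values of the 35 named members, 9 held an array far from the rest of its group, and chance gives about 1 in 20 groups. The gap to the nearest array as a share of the group's range stands first. F344 E20 replicate 2 was low in Mrps17 (0.78, 9.78 against 10.33), Mrpl43 (0.647, 10.27 against 10.52), Mrpl51 (0.643, 7.64 against 7.91) and Mrpl36 (0.608, 10.72 against 11.08), the array with the lowest mean over the family. In SHRSP at E20, replicate 2 was high in Mrps18c (0.935, 10.75 against 10.61), replicate 3 low in Mrpl3 (0.899, the others at 11.14 or above) and replicate 1 low in Mrps27 (0.855, 9.01 against 9.20). At week 14, SHRSP replicate 5 was low in Mrpl51 (0.649, 7.96 against 8.09) and F344 replicate 7 low in Mrpl1 (0.591, 9.13 against 9.40).

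The stage difference differed between the strains in Mrps27, with an interaction of -0.80 (adjusted p = 0.00696 from limma), and in Mrpl50, with -0.54 (adjusted p = 0.000299). These are the 2 members whose interaction of strain and stage passed the test over all probes, 3.23% of the family beside a similar 2.96% of all probes.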

How the results depend on the processing

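No called value changed direction under an alternative, and signs turned only in values near 0 that passed no test, namely Mrpl3 between the strains at week 14, Mrpl17 between stages in F344, and the interactions of Mrpl44 and of the median member. Mrpl17 and Mrpl18 stayed the 2 members past the limit of 1.5 between the strains in each alternative run. Counts at an adjusted p under 0.05 moved more. At week 14 the members higher in SHRSP (11) numbered 7 with the replicate number as a block, 6 with limma-trend, 7 with array weights, and 18 with the leading 2 residual components as covariates, a setting chosen after seeing the data. At E20 the members higher in SHRSP (5) numbered 3 with only the groups compared and 2 with the replicate block, and those lower (3) numbered 5 with only the groups compared. At a log2 limit of 1, 2 members passed between stages in SHRSP and 1 in F344, against 0 at 1.5. A positive interaction, which 0 members had, was called in 1 with array weights, in 1 with only probes above the median and in 2 with the residual components, which gave 4 negative ones against 2. The residual components came from values centred within each group, so they leave the differences unchanged and alter only the spread around them. For the other alternatives the cause was not tested.

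With each array left out in turn, members higher in SHRSP numbered 7 to 13 at week 14 and 2 to 6 at E20, and those lower 4 to 5 and 2 to 3. Members higher at E20 numbered 8 to 11 in SHRSP and 8 to 13 in F344, and those lower 19 to 25 and 20 to 28. Positive interactions numbered 0 to 1 (1 without F344 E20 replicate 1, 2, 5 or 7, or without F344 week 14 replicate 1) and negative ones 2 to 3. Each member has 1 probe, so other choices of probe gave no other values. No label says that replicate numbers pair animals. The block changed the calls of Mrpl21, Mrps10 and Mrps24 at E20 and of Mrpl46, Mrpl49, Mrpl51, Mrps7 and Mrps9 at week 14 among the members named. Mrpl36 lost its call with limma-trend, and the stage difference of Mrpl17 in SHRSP was called with array weights. Low intensities limit Mrpl17 in F344 and Mrpl18 in SHRSP.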
